A study of Mus musculus with 8 samples.

Results

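The nuclear factor of activated T cells (NFAT) family comprises 5 genes, Nfatc1, Nfatc2, Nfatc3, Nfatc4 and Nfat5, and was described here in mouse neural stem cells grown at 2 oxygen levels. Members were chosen by name: every array probe whose RefSeq transcript accession belongs to 1 of the 5 symbols was taken, which gave 8 probes among 55681 on the array. Nfatc1, Nfatc2 and Nfatc3 had 2 probes each, and Nfatc4 and Nfat5 had 1 each. All 8 probes passed the filter on dim probes, as did 37669 probes in all, and each was well above background and below saturation on all 8 arrays.

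NFAT proteins are transcription factors that share a DNA-binding domain related to that of the NF-kB proteins. NFATc1 to NFATc4 rest in the cytoplasm in phosphorylated form, and a rise in cell calcium activates the phosphatase calcineurin, which removes the phosphates and lets them enter the nucleus, where they often bind DNA beside AP-1 factors. NFAT5, also called TonEBP, lacks the calcineurin docking region and drives genes that protect cells from osmotic stress. In the developing nervous system calcineurin and NFAT signalling is known for its part in axon growth and in the response to neurotrophins.

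The cells came from OF-1 mouse embryos at stage E13.5 and grew as neural stem cells in medium without serum, at 21% oxygen (the atmospheric level, called normoxia in the labels) or at 5% oxygen (called hypoxia), for at least 10 days over a few passages. No gene was altered in either group, and the groups differed only in oxygen as far as the labels say. Each of 4 experiments used other mouse donors and gave 1 culture at each level, so 4 pairs of cultures carry the same number at both levels. RNA from each culture was labelled with 1 dye and hybridised to 1 Agilent mouse array.

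Values are log2 of the spot's signal relative to the 75th percentile of the signal on the same array, and levels of different probes are not set against each other because probes bind with different strength. The 75th percentile itself ran from 1909 to 7352 intensity units, and 64.4% to 73.9% of spots were well above background. All 10 markers of neural stem cells (among them Nes, Sox2, Pax6 and Fabp7) were well above background on all 8 arrays. Markers of other cells were detected too: 4 of 4 meningeal fibroblast, 4 of 5 endothelial, 4 of 5 T lymphocyte, 5 of 5 microglia and leukocyte, 4 of 4 astrocyte, 6 of 6 neuronal and 5 of 5 oligodendrocyte lineage markers passed the filter. Cdh5 and Cd3g were the markers that did not. In a culture, fewer cells of a type and less RNA per cell cannot be told apart.

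Changes were tested with limma in 2 ways, over all 37669 probes. The unpaired fit compares the 4 cultures of each level, and the paired fit takes the experiment number as a block and so asks how far each culture moved from its partner. A probe is called changed where the Benjamini-Hochberg adjusted p is under 0.05. The gene's probe with the highest mean signal (the brighter probe) stands for the gene.

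In this family 1 gene of 5, Nfatc4, rose at 5% oxygen in the paired fit, and none passed in the unpaired fit, where 1 of the 5 had an unadjusted p under 0.05. Among all 16065 RefSeq genes measured in the same way, 6.44% passed in the paired fit, 5.08% with an increase and 1.36% with a decrease, and 0.124% passed in the unpaired fit. Counted by probe, 2 of 8 NFAT probes passed in the paired fit, against 4.78% of all probes (3.65% higher and 1.13% lower): the Nfatc4 probe, which rose, and the dimmer of the 2 Nfatc1 probes, which fell. The median change of the 5 genes was 0.04 on the log2 scale, against 0.01 over all RefSeq genes. In the family 3 genes had a change above 0 and 2 a change below 0. Of all 37669 probes, 2928 had an unadjusted p under 0.05 in the unpaired fit.

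Because Nfatc4 and Nfatc2 were the members whose level was higher at 5% oxygen in all 4 pairs, the 250 bases before the outermost RefSeq start of each are shown, 5′ to 3′ on the strand of the gene, from RefSeq tables of build GRCm38.p6. Nfatc4 lies at chr14:55824545-55824794 on the plus strand and Nfatc2 at chr2:168601658-168601907 on the minus strand. Capitals mark GGAAA, the core bound by NFAT proteins, and ACGTG or GCGTG, the core bound by hypoxia-inducible factor, on either strand. The 2 forms of the second core share their last letters and overlapped no GGAAA match in these windows.
Nfatc4: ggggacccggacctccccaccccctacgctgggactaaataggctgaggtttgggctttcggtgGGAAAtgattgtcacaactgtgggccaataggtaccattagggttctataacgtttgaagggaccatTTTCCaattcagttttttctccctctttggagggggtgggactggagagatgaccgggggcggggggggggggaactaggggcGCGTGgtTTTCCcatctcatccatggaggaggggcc
Nfatc2: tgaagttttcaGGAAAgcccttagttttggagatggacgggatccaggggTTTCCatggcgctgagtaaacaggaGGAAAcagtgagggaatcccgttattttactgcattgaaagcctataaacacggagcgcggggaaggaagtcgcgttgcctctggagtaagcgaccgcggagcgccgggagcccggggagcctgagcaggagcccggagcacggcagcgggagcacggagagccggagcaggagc
The Nfatc4 window held GGAAA 3 times, at 186, 119 and 29 bases before the start, and GCGTG once, at 36 bases before it. The Nfatc2 window held GGAAA 3 times, at 239, 200 and 175 bases before the start, and neither form of the hypoxia-inducible factor core. Among 32851 promoter windows of the same length, 55.6% held GGAAA, 16.6% held ACGTG and 28.2% held GCGTG, so such matches are common. They describe letters in these windows and not bound sites. RefSeq windows were at hand for 4 of the 5 members, Nfatc2, Nfatc3, Nfatc4 and Nfat5. At its outermost start Nfatc3 held GGAAA once, 28 bases before the start, and no hypoxia-inducible factor core. A second Nfatc3 start had ACGTG on both strands, at 143 and 142 bases before it, so the same letters match on both, and GCGTG once. Nfat5 held GGAAA 2 times and GCGTG once.

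Nfatc4 is the calcineurin-dependent member on which published work with these cultures centred, so it was a gene of interest in advance, and the values below are from those same arrays rather than independent support. At 21% oxygen its level was -3.77, -4.34, -3.82 and -3.80 in cultures 1 to 4. At 5% oxygen it was -2.92, -2.57, -2.84 and -3.04. Every culture at 5% oxygen lay above every culture at 21%, a separation seen upward for 3.87% and downward for 2.17% of RefSeq genes (3.00% and 1.64% of probes). Among the 21% cultures, culture 2 stood low, and its partner was the highest of all 8.

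Nfatc4 rose by 2.12-fold in the paired fit (log2 change 1.09, 95% interval 0.65 to 1.53, limma adjusted p = 0.0193). In the unpaired fit the change was the same size, from -3.93 ± 0.27 to -2.84 ± 0.20 (SD, n = 4 per group), with limma adjusted p = 0.0814. By pair the change was 0.84, 1.76, 0.98 and 0.76. Of all probes, 1.90% had a larger increase. Without pair 2, where the change was largest, it was 0.86 (paired adjusted p = 0.0415), and without pair 3 the call was lost at a change of 1.12 (paired adjusted p = 0.109). With no filter on dim probes the call was also lost (paired adjusted p = 0.0962).

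Markers of other cell types were higher at 5% oxygen in the same cultures. Of 5 oligodendrocyte lineage markers, 1 rose in the paired fit, against 5.08% of RefSeq genes. It was the myelin gene Mbp (change 1.56, limma adjusted p = 0.0131), a call lost without pair 3. Sox10 (1.77) and Pdgfra (1.69) did not pass, and the median change of the 5 was 1.56. Their summed signal ran from 24.1 to 38.9 at 21% oxygen and from 31.1 to 39.4 at 5%, and it was lower at 5% oxygen in cultures 1 and 2 and higher in cultures 3 and 4. Meningeal fibroblast markers, with 2 of 4 called higher, had a median change of 1.23. The part of these cell types in the Nfatc4 change was not tested.

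**Figure D1:**
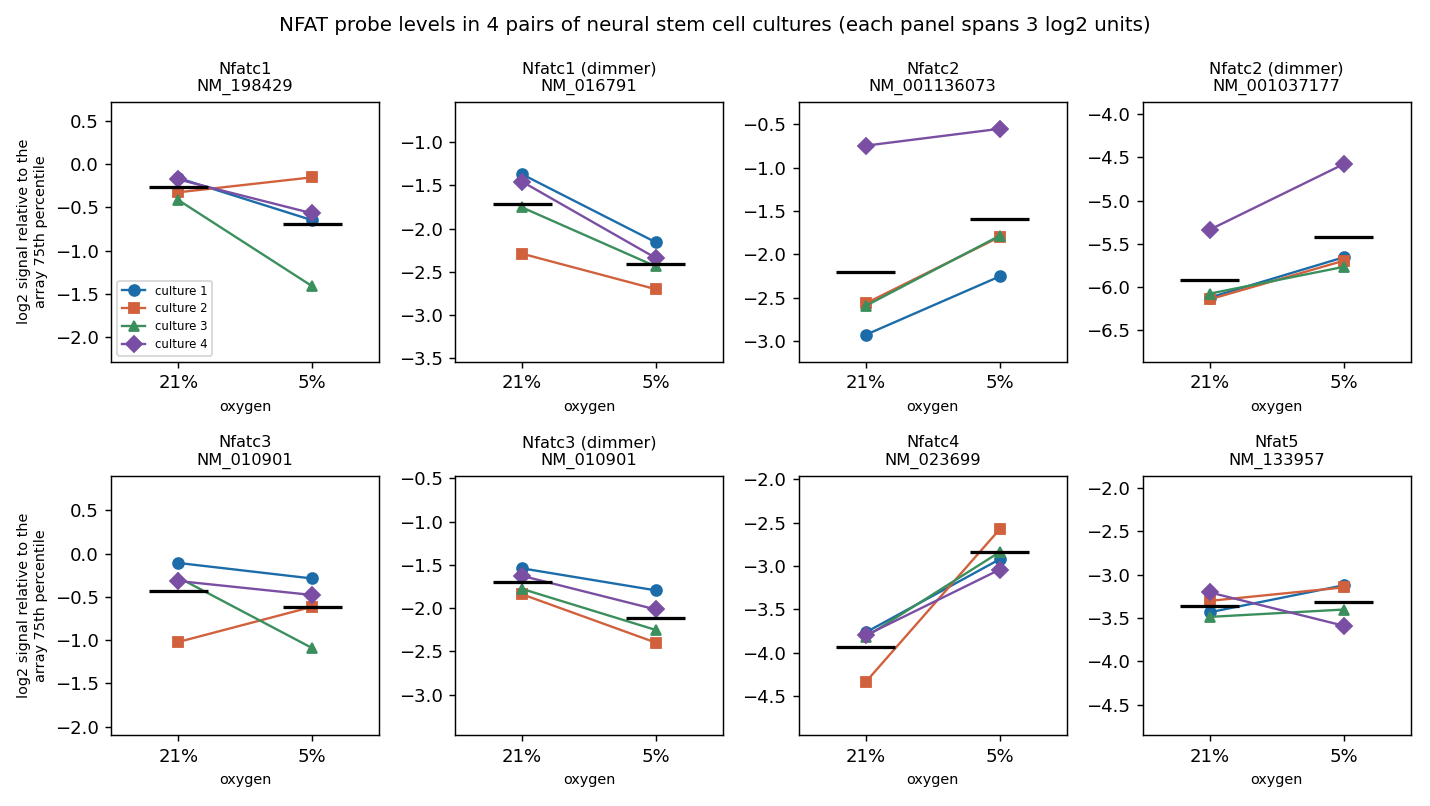
Level of each NFAT probe (vertical axis, log2 signal relative to the array's 75th percentile) at 21% and 5% oxygen. Each coloured line joins the 2 cultures of 1 experiment, black bars are group means (n = 4), and every panel spans the same range of 3 log2 units. The 4 Nfatc4 lines all climb, with no overlap between the levels, the lines of the dimmer Nfatc1 probe all descend, and culture 4 lies apart from the rest in both Nfatc2 panels.

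Nfatc2, also known as NFAT1 and prominent in T lymphocytes, was higher at 5% oxygen in all 4 pairs by both of its probes but was not called. Its brighter probe, designed on transcript NM_001136073, had levels of -2.93, -2.56, -2.59 and -0.75 at 21% oxygen. At 5% oxygen the levels were -2.25, -1.80, -1.78 and -0.55. The groups overlapped because culture 4 was high at both oxygen levels, so the spread between cultures (SD 0.99 and 0.73) was wider than the change. The paired change was 0.61 (1.53-fold, 95% interval 0.25 to 0.97, limma adjusted p = 0.0695), and the unpaired adjusted p was 0.889. The unpaired change was 1.099 without culture 4 at 21% oxygen and 0.26 without culture 4 at 5%. An increase in all 4 pairs was seen for 17.4% of RefSeq genes and 14.4% of all probes, and a decrease for 15.7% of genes.

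The dimmer Nfatc2 probe, designed on NM_001037177, was also highest in culture 4, at a signal of 37.9 to 227 intensity units. Its levels were -6.12, -6.14, -6.07 and -5.34 at 21% oxygen and -5.66, -5.70, -5.77 and -4.58 at 5% oxygen. The other 3 cultures lay between -6.14 and -6.07 at 21% oxygen. The paired change was 0.49 (limma adjusted p = 0.0993). Averaging both probes before the fit gave a change of 0.55 with a paired adjusted p of 0.044. The brighter probe alone was called in the paired limma fit under normexp background correction (adjusted p = 0.0356). It was also called with only probes well above background on all 8 arrays (0.0483) and with trend and robust moderation (0.0347). The Nfatc2 call thus turns on how the probes are used and on the processing.

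Culture 4 was also high in some markers of other cell types and low in others. At 21% oxygen it had the lowest sums of astrocyte (18.8), neuronal (15.3) and oligodendrocyte lineage (24.1) markers. At 5% oxygen it had the lowest astrocyte sum (26.7) and the highest oligodendrocyte lineage sum (39.4). For meningeal fibroblasts, the summed signal of Col1a1, Col1a2, Dcn and Lum, relative to the 75th percentile, was 0.967, 1.27, 1.46 and 4.59 in cultures 1 to 4 at 21% oxygen and 2.00, 4.52, 3.76 and 8.59 at 5% oxygen. Culture 4 was the highest of its group in this sum, as it was for both Nfatc2 probes, and the sum was higher at 5% oxygen in all 4 pairs. Of these 4 genes, 2 rose in the paired fit, the collagen gene Col1a2 and Dcn, against 5.08% of RefSeq genes. Lum was lower at 5% oxygen in pair 1, and without pair 2 or pair 3 only 1 of the 4 passed. Among 5 microglia and leukocyte markers, Ptprc, Aif1 and Cx3cr1 were highest in culture 4 at both oxygen levels. Itgam was highest in culture 1 at both levels (2.02 and 2.17) and lowest in culture 4 at 5% oxygen (0.93). Csf1r was highest in culture 1 at 21% oxygen (0.99) and in culture 4 at 5% (0.75). Aif1, for example, was at -2.11 there at 21% oxygen, against -8.75 to -3.45 in the other cultures, and at -1.28 at 5%, against -7.67 to -4.79. None of these 5 passed in either fit or had an unadjusted p under 0.05, and their summed signal, 2.35 to 6.07 at 21% and 2.70 to 5.84 at 5% oxygen, was highest in culture 1. Summed T lymphocyte markers ran from 1.57 to 3.27 at 21% and from 2.21 to 3.17 at 5% oxygen. Of the 4 measured, 1 rose in the paired fit, Lck, against 5.08% of RefSeq genes, a call lost when any single pair was left out. The part of these cell types in the Nfatc2 values was not tested. Without pair 4 the Nfatc2 change was 0.75 (paired adjusted p = 0.051).

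**Figure D2:**
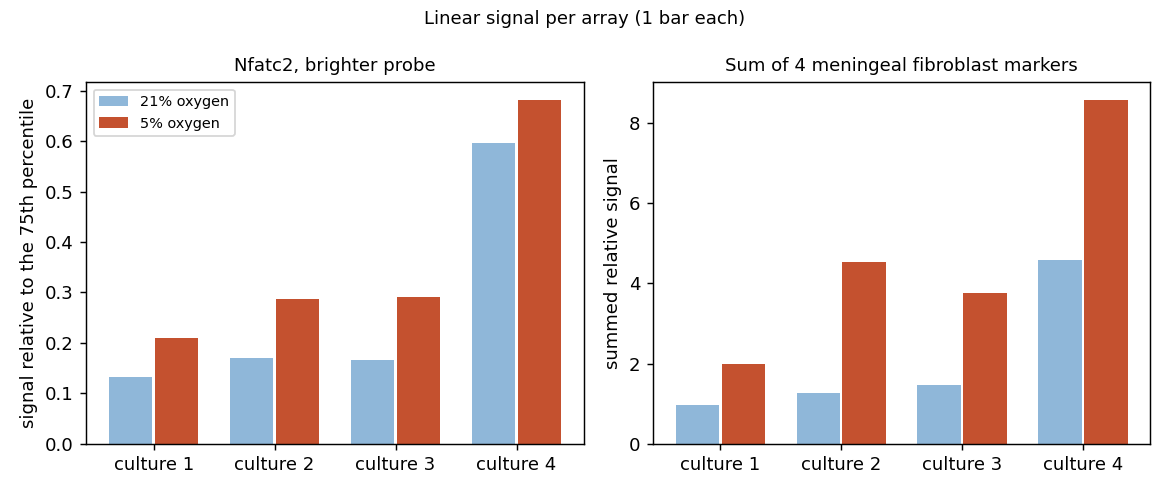
Signal of the brighter Nfatc2 probe (left) and summed signal of 4 meningeal fibroblast markers (right), both linear and relative to the array's 75th percentile, with 1 bar per array. Culture 4 has the tallest bars in both panels, and within every culture the bar at 5% oxygen is the taller one, for the markers 8.59 against 4.59 in culture 4.

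Nfatc1, the member known for its roles in heart valve formation and in bone-resorbing cells, had lower mean levels at 5% oxygen by both probes. The brighter probe, designed on NM_198429, was at -0.16, -0.33, -0.42 and -0.18 at 21% oxygen. At 5% oxygen it was at -0.65, -0.15, -1.41 and -0.57. Culture 2 went against the others, with a change of 0.17, and culture 3 had the largest drop, with a change of -0.995. Over all kept probes the median change was 0.03, 0.14, -0.14 and 0.04 in pairs 1 to 4. The groups overlapped and the change of -0.43 was not called (95% interval -0.88 to 0.03, paired limma adjusted p = 0.291, unpaired 0.802). It was -0.19 without culture 3 at 5% oxygen and -0.24 without pair 3.

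The dimmer Nfatc1 probe, designed on NM_016791, was at -1.37, -2.29, -1.76 and -1.46 at 21% oxygen and at -2.16, -2.70, -2.44 and -2.34 at 5% oxygen. It was lower at 5% oxygen in all 4 pairs, by -0.79, -0.41, -0.68 and -0.88, although the groups overlapped between culture 2 at 21% and culture 1 at 5%. This probe fell by 0.69 on the log2 scale (1.61-fold, 95% interval -1.02 to -0.36, paired limma adjusted p = 0.036, unpaired 0.415). Leaving out a single pair, whichever it was, ended the call, with paired adjusted p of 0.168, 0.0503, 0.126 and 0.107 for pairs 1 to 4. The change of the brighter probe minus that of the dimmer one was 0.30, 0.58, -0.31 and 0.49 by pair, so the probes differed in both directions. Whether they read different transcripts of the gene was not tested.

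Among endothelial markers Pecam1, Kdr, Tek and Cldn5, 2 fell in the paired fit, Tek and Cldn5, both lower in all 4 pairs, while Pecam1 (0.08) and Kdr (-0.10) did not pass. Among all RefSeq genes 1.36% fell. Neither Tek nor Cldn5 passed without pair 3, and Tek was well above background in 3 cultures at 21% and in 1 at 5% oxygen. Tek thus passed the filter on dim probes only through the 21% oxygen group, where it was higher, and its fall rests on dim values. The summed signal of the 4 ran from 1.07 to 4.07 at 21% and from 1.38 to 3.22 at 5% oxygen, and it was lower at 5% oxygen in cultures 1, 3 and 4 and higher in culture 2. The sum follows Kdr, the marker with the highest signal, which had the same signs by pair, whereas Tek and Cldn5 were lower in culture 2 as well. The brighter Nfatc1 probe had the signs of the sum, as did the brighter Nfatc3 probe and Ppp3ca. The part of endothelial cells in the Nfatc1 values was not tested.

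Nfatc3, called NFAT4 in older naming, was measured by 2 probes on 1 transcript, NM_010901, and neither was called. The brighter probe was at -0.11, -1.02, -0.28 and -0.32 at 21% oxygen and at -0.29, -0.61, -1.09 and -0.48 at 5% oxygen, with overlap and with culture 2 again going up against the other cultures. Its change was -0.19 (95% interval -0.65 to 0.27, paired limma adjusted p = 0.682), and it was 0.02 without pair 3. The median change over all kept probes was 0.14 in pair 2 and -0.14 in pair 3. The dimmer probe was at -1.54, -1.84, -1.78 and -1.63 at 21% and at -1.80, -2.40, -2.25 and -2.02 at 5% oxygen. It was lower in all 4 pairs, as 13.3% of all probes were, with a change of -0.42 (95% interval -0.73 to -0.11, paired limma adjusted p = 0.139). Although both probes carry the same accession, their changes differed by 0.97 in pair 2, the pair in which they had opposite signs.

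Nfat5 showed the smallest change of the family. Its level was -3.43, -3.30, -3.49 and -3.20 at 21% oxygen and -3.12, -3.15, -3.40 and -3.59 at 5% oxygen. The groups overlapped, and cultures 1 to 3 went up while culture 4 went down. The change was 0.04 (95% interval -0.32 to 0.41, paired limma adjusted p = 0.927), and its sign turned under median scaling (-0.012) and quantile normalization (-0.0090).

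**Figure D3:**
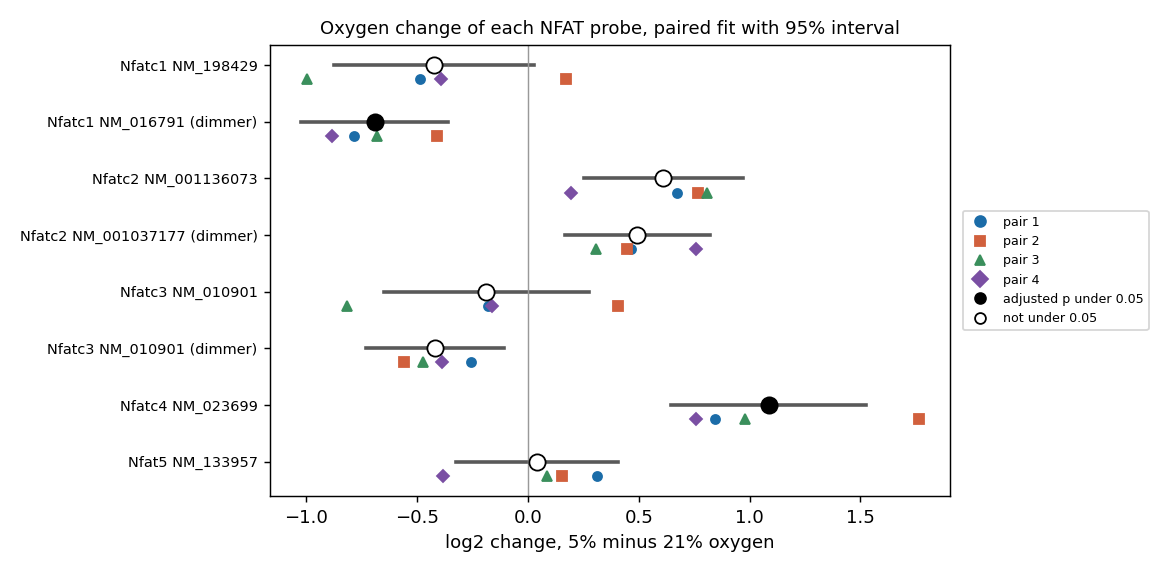
Log2 change (5% minus 21% oxygen, horizontal axis) of the 8 NFAT probes. Large circles are the paired estimate with its 95% interval, filled where the adjusted p is under 0.05, and small coloured symbols below are the 4 single pairs. Nfatc4 (1.09) and the dimmer Nfatc1 probe (-0.69) are filled, and Nfat5 sits at 0.04.

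Profiles most like each member over the 8 arrays were sought among 16038 other RefSeq genes, by the root mean square difference of levels after centring each gene on its mean. For Nfatc4 they were Nhsl2 (difference 0.16 on the log2 scale), Trim25 (0.17) and 2900026A02Rik (0.18), with changes of 1.12, 1.02 and 0.85. For Nfatc2 they were Tinagl1 (0.14), Fxyd2 (0.18) and Hspb1 (0.19), with changes of 0.59, 0.45 and 0.79. For Nfatc1 they were Tars (0.15), Diaph1 (0.18) and Ell3 (0.18), for Nfatc3 Ooep (0.08), Ufm1 (0.09) and Mrpl41 (0.10), and for Nfat5 Trim56 (0.09), Dync2h1 (0.10) and Cpne5 (0.10). For members that vary little, such as Nfat5 (SD 0.17 over the arrays), a small difference can mark any gene that also varies little.

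The genes that act on NFAT were read from lists of known components. Among all RefSeq genes 6.44% passed in the paired fit. Of all 37669 probes, 2928 had an unadjusted p under 0.05 in the unpaired fit and 7158 in the paired fit. Calcineurin is built of a catalytic subunit (Ppp3ca, Ppp3cb or Ppp3cc) and a calcium-binding regulatory subunit (Ppp3r1, or Ppp3r2 in testis), and none of the 5 genes passed in either fit or had an unadjusted p under 0.05. Their paired changes ran from -0.24 for Ppp3r1 to 0.08 for Ppp3cc, with a median of -0.03. Ppp3ca, for example, was at 4.49 ± 0.21 at 21% and 4.46 ± 0.24 at 5% oxygen (SD, n = 4 per group).

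Among 9 measured calcineurin regulators, 1 rose in the paired fit, Rcan2, against 5.08% of RefSeq genes. None passed in the unpaired fit (1 at an unadjusted p under 0.05). Rcan2 encodes a protein that binds and inhibits calcineurin. At 21% oxygen it was at 1.71, 1.79, 1.58 and 1.31. At 5% oxygen it was at 2.63, 3.06, 3.14 and 1.90, with no overlap, as upward for 3.87% of RefSeq genes. It rose by 2.12-fold (paired limma adjusted p = 0.0162, unpaired 0.207), and the call was lost without pair 2 (0.0747) or pair 3 (0.0921) and with no filter on dim probes (0.0864). Its relative Rcan1, itself a well-known target gene of NFAT, did not pass, with changes of -0.56, -0.66, -0.03 and 0.05 by pair (paired adjusted p = 0.39). Rcan3 (-0.22), the calcineurin-binding gene Cabin1 (-0.39), Chp1 (-0.01), the anchoring protein gene Akap5 (0.02) and Myoz1 (-0.07) did not pass. Nor did Ppia (0.34) and Fkbp1a (0.17), which encode the binding proteins of the calcineurin-inhibiting drugs cyclosporin and FK506. Chp2 and Myoz2 did not pass the filter on dim probes.

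None of 19 kinases and nuclear export or retention components passed (4 at an unadjusted p under 0.05 in the paired fit), with a median change of 0.02. The 2 with the smallest p were the kinase gene Lrrk2 (0.92, paired adjusted p = 0.0673) and Prkacb, a catalytic subunit of protein kinase A (0.39, 0.195). None of 16 measured genes of store-operated calcium entry and calcium release passed (4 at an unadjusted p under 0.05 in the paired fit), with a median of 0.17. Their smallest p belonged to the channel genes Trpc1 (0.51, paired adjusted p = 0.0747) and Itpr3 (0.66, 0.101).

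Among 18 measured partner factors, most of which bind DNA beside NFAT, 1 rose in the paired fit, near the 5.08% of RefSeq genes that rose. The median change was 0.25. Fosl2, an AP-1 subunit, was at 0.10, 0.14, 0.52 and 1.13 at 21% oxygen. At 5% oxygen it was at 1.35, 1.75, 1.62 and 1.63, with no overlap, as upward for 3.87% of RefSeq genes. It rose by 2.17-fold (paired limma adjusted p = 0.0176, unpaired 0.136), and its second probe rose too, by 1.96-fold (0.041). Fosl2 missed the threshold without pair 1, 2 or 3 (0.0661, 0.0662 and 0.111) and with no filter (0.0915).

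Of 29 genes known as NFAT targets in lymphocytes, heart, bone or neurons, 19 were measured, of which 3 passed in the paired fit, all of them higher at 5% oxygen, with a median change of 0.15. The 10 that did not pass the filter were mostly cytokine and lymphocyte genes (Il4, Il5, Il13, Csf2, Ifng and Cd40lg among them). The adhesion gene Icam1 was at -4.11, -3.56, -3.33 and -3.79 at 21% oxygen and at -2.41, -2.31, -2.05 and -2.26 at 5% oxygen. It rose by 2.71-fold and was the only gene of these lists to pass in both fits (limma adjusted p = 0.00293 paired, 0.0466 unpaired). The unpaired call was lost without any 1 culture or pair, under median or quantile scaling, with no filter and on the authors' deposited values, whereas the paired call stood in all 15 alternatives.

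Egr2, an early response transcription factor, was at -0.90, -1.46, -1.82 and -1.03 at 21% oxygen. At 5% oxygen it was at 0.16, 0.07, 0.07 and -0.07, again with no overlap, as upward for 3.87% of RefSeq genes. It rose by 2.57-fold (paired limma adjusted p = 0.00723, unpaired 0.0599), and the call was lost without pair 3 (0.0536) and with no filter (0.0525). Ptgs2, which encodes the prostaglandin enzyme COX-2, was at -7.87, -7.84, -7.89 and -4.77 at 21% oxygen and at -6.34, -4.08, -5.34 and -4.31 at 5%. It was well above background in 1 of 4 cultures at 21% oxygen, culture 4, and in all 4 at 5%, where an array counts if at least 1 of the probe's 10 spots was, and the groups overlapped. Ptgs2 thus passed the filter on dim probes only through the 5% oxygen group, where it was higher. Its paired change of 2.08 (limma adjusted p = 0.0406) therefore rests on dim values, and with normexp background correction the change was 0.93 (0.0128). Ptgs2 missed the threshold without pair 1, 2 or 3 (0.058, 0.11 and 0.212), with no filter (0.161) and under quantile normalization (0.0661). All 3 genes are targets of other pathways as well.

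Of 11 measured genes known as osmotic targets of NFAT5, 1 fell and none rose in the paired fit, with a median change of -0.05. Among RefSeq genes 1.36% fell and 5.08% rose. Slc14a2, the urea transporter gene of the kidney, was at 1.39, 0.18, 0.73 and 1.84 at 21% oxygen and at -0.35, -1.56, -0.97 and 0.79 at 5%, with overlap between the groups and a drop in every pair. It fell by 1.56 on the log2 scale (paired limma adjusted p = 0.00362, unpaired 0.361), its second probe fell by 1.40 (0.00517), and the call stood without any 1 pair. The other 10, among them the inositol and taurine transporter genes Slc5a3 and Slc6a6, did not pass. Of the 4 measured NF-kB genes that share the Rel homology domain, none passed (1 at an unadjusted p under 0.05 in the paired fit), and the smallest p belonged to Nfkb1 (-0.39, paired adjusted p = 0.159) and Relb (-0.21, 0.438).

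**Figure D4:**
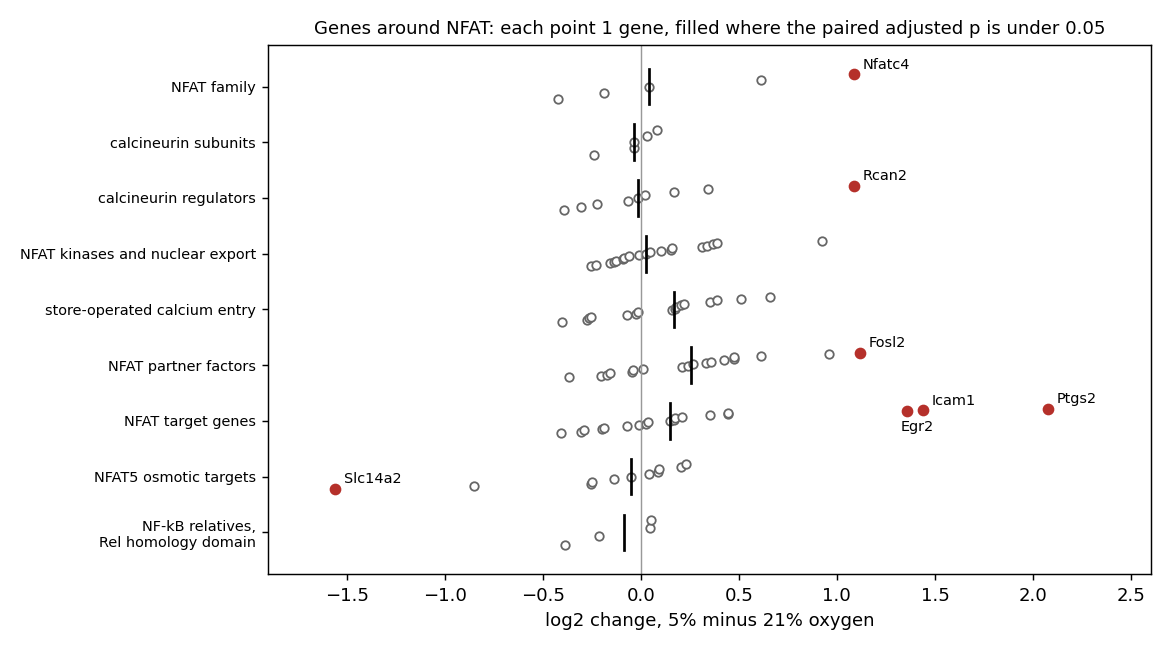
Paired log2 change (5% minus 21% oxygen) of every measured gene in the NFAT family and in 8 lists around it, with 1 point per gene, a black bar at each list's median, and filled, named points where the adjusted p is under 0.05. Points of calcineurin subunits stay between -0.24 and 0.08, whereas Nfatc4, Rcan2, Fosl2, Egr2, Icam1 and Ptgs2 lie to the right and Slc14a2 to the left.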

How the data were processed

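RNA from 8 cultures, 4 per oxygen level, was measured on 1-colour Agilent arrays that lay on 1 slide, so there was no slide batch to test. Per the file headers, the deposited intensity values are Feature Extraction 10.7.3.1 processed signals, after background subtraction and detrending, and arrays were not scaled to one another. The authors' deposited log2 table equalled log2 of that signal after subtracting the 75th percentile over probes within an array and then the probe median, to within 0.01 for 100% of probes. Its column medians ran from -0.12 to 0.25.

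Here, log2 signal was set relative to the 75th percentile of all spots that are not controls, array by array. Marked outlier spots were left out and spots of 1 probe averaged. Probes well above background (in at least 1 spot) on at least 3 of 4 arrays of a group were kept, 37669 of 55681. Accessions were matched without versions to RefSeq GRCm38.p6, which named 27235 probes and left 28446 unnamed. The array was designed on another build.

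Groups were compared with limma 3.58.1 in R 4.3.3 over all kept probes. The unpaired fit was the planned one. Both oxygen levels were cultured in parallel from the same isolation per the labels, and each experiment had its own donors. Deviations from group means correlated between same-numbered arrays at 0.74, 0.51, 0.37 and 0.62. The highest correlation with an array of another number was -0.06, 0.29, 0.29 and -0.14, so the gap was narrow for number 3. Numbers were taken to pair the samples, and the paired fit (replicate block) stands beside the unpaired one. The procedure was tested on simulated data. The members, lists and rule for named genes (all members, as many as 4 called genes of a list, otherwise 2 ranked by p, every measured calcineurin gene, and 3 genes of like profile per member) were chosen with earlier results of these data known, and the calcineurin and NFAT genes also knowing what published work dealt with. Alternatives covered pairing, background, scaling, filter, marked spots, moderation, gene summary, weights, the authors' table and left-out arrays. The number of arrays limits the precision.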

Additional observations from a re-analysis of the deposited data

Results flagged for a closer look

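An array stood apart from the other 3 of its group, by Dixon's test at the 95% level, in 6 of 66 groups tested, and chance gives about 1 in 20. For the brighter Nfatc2 probe, culture 4 at 21% oxygen was at -0.75 against -2.93 to -2.56 in the others. For the dimmer Nfatc2 probe, culture 4 was at -5.34 against -6.14 to -6.07 at 21% oxygen, and at -4.58 against -5.77 to -5.66 at 5% oxygen. Nfatc4 in culture 2 at 21% oxygen was at -4.34 against -3.82 to -3.77. Ppia in culture 1 at 5% oxygen was at 6.81 against 5.55 to 5.73. Ptgs2 in culture 4 at 21% oxygen was at -4.77 against -7.89 to -7.84, where the other 3 were not well above background.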

How the results depend on the processing

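Nfatc4 kept a positive change in all alternatives (0.86 to 1.20) and was called in no unpaired one. With the replicate block it was called (1.09, adjusted p = 0.0193), in 13 of 15 block alternatives too, and lost with no filter on dim probes (1.09) and without replicate 3 (1.12; changes of 0.86 to 1.20 when 1 pair was left out). Nfatc2 was called with the block under normexp (0.57), with probes well above background on all 8 arrays (0.61), with trend and robust moderation (0.61) and with the mean of a gene's probes (0.55). Nfat5 turned sign under median scaling (-0.012) and quantile normalization (-0.0090), with and without the block, and ran from -0.048 to 0.18 when arrays or pairs were left out. Nfatc3 ran from -0.39 to 0.022 there, above 0 without replicate 3. Nfatc1 ran from -0.62 to -0.19 and Nfatc2 from 0.26 to 1.099 without the block. The Nfat5 and Nfatc3 signs lie within error.

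Family members called with the block were 1, and 0 with no filter, 2 under normexp, all-8 filtering, moderation and probe means, and 0 to 1 with a pair left out. Probes called numbered 37 unpaired and 1802 with the block. Unpaired counts were 0 under median scaling, quantile normalization and no filter (3168, 3419 and 3076 probes at an unadjusted p under 0.05 by limma), 24 with one probe per gene, 23 with probe means, 71 with all-8 filtering, 121 with moderation, 132 with array weights and 0 to 86 with arrays left out (65 when normoxia replicate 2 and 86 when hypoxia replicate 4 was dropped, 0 otherwise, with 1806 to 4177 probes at an unadjusted p under 0.05). Block counts were 404 with no filter, 2985 with moderation, 2948 with array weights and 367 to 1883 with a pair left out (834, 873, 367 and 1883 for pairs 1 to 4). Block alternatives on filter to all 8 arrays, marked spots, moderation, probe means and weights were chosen after seeing the data. Fewer or more probes tested changes the adjustment, and other causes were not tested. Signal over background limits Ptgs2.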
